A study of Saccharomyces cerevisiae with 6 samples.

Results

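The 36 genes described here encode parts of the spindle pole body, the microtubules that grow from it and the motor proteins that move along them. They were chosen by name from general knowledge of yeast, with earlier results of these data known. The share of them that was called is therefore not an independent test. Each gene was found on the array through its systematic name, with 1 probe per gene, so they make up 36 of the 6256 genes measured. RNA came from YΔG/XK/XI, the control strain, and YΔGP/XK/XI, the *PHO13* deleted strain, with 3 replicates of each taken 9 h into a fermentation of 50 g/L xylose in rich medium with limited oxygen. Both strains derive from the haploid laboratory strain YPH499 (*MAT*a, with the markers *ade2*, *his3*, *leu2*, *lys2*, and also *trp1* and *ura3*), lack the aldose reductase gene *GRE3*, overexpress the xylulokinase gene *XKS1* from the *TDH3* promoter and carry multiple integrated copies of the *Orpinomyces* xylose isomerase gene *xylA* behind the *PGK1* promoter. In YΔGP/XK/XI the gene *PHO13* is also replaced with the *KanMX* marker, so the marker and the loss of *PHO13* cannot be told apart. The comparison asked which transcripts differed when *PHO13* was absent, and fold changes are given as the deleted strain over the control strain.

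The spindle pole body is the microtubule organizing centre of yeast and sits in the nuclear envelope, where γ-tubulin complexes on its inner and outer faces start nuclear and cytoplasmic microtubules. It is copied once per cell cycle, and its copies then separate to form the poles of a bipolar spindle. Kinesins and microtubule-associated proteins assemble and elongate that spindle, and dynein with its cortical anchor pulls the nucleus towards the bud. Many of these genes are known to be transcribed periodically in the cell cycle.

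The probe of *PHO13* (YDL236W) gave normalized log2 signals of -0.80, -0.89 and -1.07 in the control strain. In the deleted strain it read -9.34, -8.59 and -8.30, and 0 of these 3 arrays carried it well above background. Normalized log2 signal means the log2 intensity of a probe minus the 75th percentile of its array, so a negative value is dimmer than that percentile and levels of different probes are not comparable. *XKS1*, overexpressed in both strains, averaged 4.61 in the control and 4.16 in the deleted strain (log2 fold change -0.45), without overlapping arrays. An effect of this difference on the members was not tested. *STE2*, the pheromone receptor gene of *MAT*a cells, had a log2 fold change of -0.08 and was well above background on all 6 arrays. So were *BAR1*, *MFA1* and *MFA2*, the other *MAT*a-specific genes examined, with log2 fold changes of 0.31, 0.32 and 0.48. The α-factor genes *MF(ALPHA)1* and *MF(ALPHA)2*, which mark the opposite mating type, were so on 0 of the 3 control arrays and on 1 of the 3 arrays of the deleted strain each, while *STE3*, the receptor gene of that type, was so on all 6 arrays at -4.18 and -4.19 on average in the control and the deleted strain. The 75th percentile ranged from 3782 to 7632 intensity units, 94.3 to 97.0% of the probes were well above background, and all 36 members were well above background on every array. Replicates 1 and 2 of both strains shared a slide and replicate 3 of both was on another.

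Of the 36 members, 18 rose, 1 fell and 17 did not pass the test, which was limma with a Benjamini-Hochberg adjusted p under 0.05 over all 6256 genes. That is 52.8% of the members, where 29.6% of all genes were called, and in the upward direction 18 of 36 members where 16.5% of all genes were called higher. The median log2 fold change of the members was 0.21, against 0.01 over all genes, and 30 of the 36 values were above 0. The changes were moderate, from 1.16-fold to 1.85-fold among the members that rose with a median of 1.51-fold. A change that was both called and more than 2-fold was found in 0 members and in 2.17% of all genes. In 27 members the strains had no overlapping arrays, beside 46.6% of all genes. Of these, 22 were higher in YΔGP/XK/XI, beside 25.0% of all genes, and 5 were lower, beside 21.5%. They included all 19 called members. The RNA came from whole cultures, so more cells at a given stage of the cell cycle and more RNA per cell cannot be told apart. The paper also reports that cell density rose in YΔGP/XK/XI on xylose but hardly changed in YΔG/XK/XI. An effect of this difference in growth on the members was not tested.

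**Figure D1:**
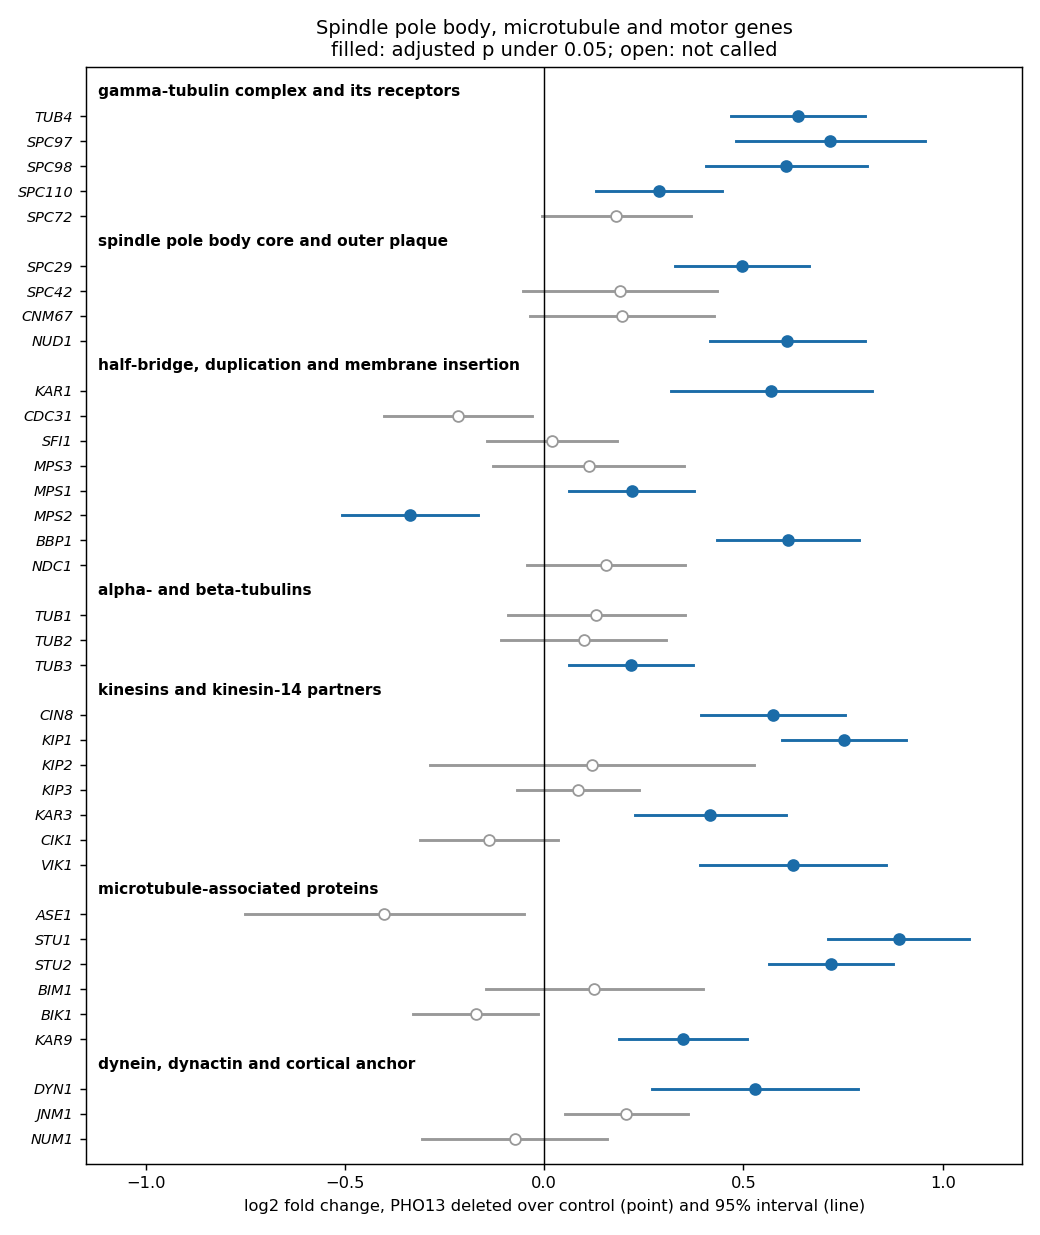
Log2 fold change of each of the 36 members, deleted strain over control strain, as a point with its 95% interval as a line, grouped by role on the vertical axis. Filled blue points are the 19 called members, 18 of which lie to the right of 0, and *MPS2* is the filled point to the left.

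**Figure D2:**
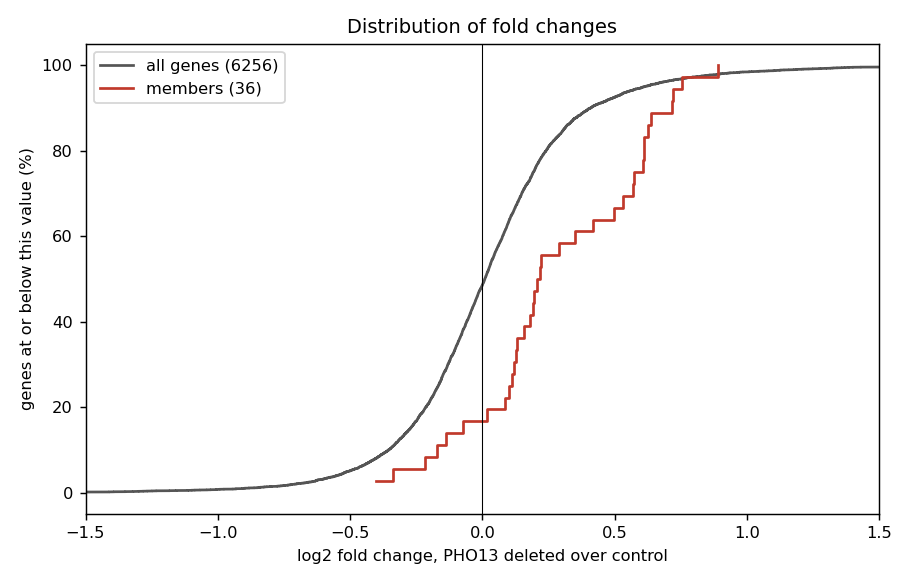
Cumulative percentage of genes (vertical axis) at or below each log2 fold change (horizontal axis, shown from -1.5 to 1.5) for all 6256 genes in grey and the 36 members in red. The members' curve lies to the right of that of all genes over most of its range, with medians of 0.21 and 0.01.

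The role group with the largest share of called genes was the γ-tubulin complex with its receptors. In it 4 of 5 genes rose, beside 16.5% of all genes, and 0 fell (median log2 fold change 0.61). *TUB4* (YLR212C), which encodes γ-tubulin, had normalized log2 signals of -2.92, -2.90 and -3.05 on the YΔG/XK/XI arrays in the order of the replicates, and -2.28, -2.36 and -2.33 on the YΔGP/XK/XI arrays. This amounted to a log2 fold change of 0.64, with a standard error (SE) of 0.07 (adjusted p = 5.29e-04). The deleted strain was higher on every array, and the distance between the strains was several times the spread within either. *SPC97* (YHR172W) and *SPC98* (YNL126W) encode the proteins that bind γ-tubulin into the small complex. *SPC97* read -6.76, -7.00 and -6.79 in YΔG/XK/XI and -5.96, -6.26 and -6.17 in YΔGP/XK/XI, for a log2 fold change of 0.72 (SE 0.10, adjusted p = 0.00157). The signals of *SPC98* were -4.47, -4.58 and -4.52, and -3.81, -3.87 and -4.08 in the deleted strain (log2 fold change 0.61, SE 0.09, adjusted p = 0.00163). Again no array of one strain overlapped with the other. The probe of *SPC97* was dim, and the size of its change depended on the background correction and scaling, from 0.48 with the normexp method to 1.01 with quantile normalization, while its call held under both. The within-array difference of *SPC97* and *SPC98* shifted by 0.11 between the strains, which overlapped (exact permutation test, two-sided, p = 0.4), and by -0.07 with normexp.

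Both receptors that tether the complex were higher on every array of the deleted strain, and the nuclear one alone passed the test. *SPC110* (YDR356W), the receptor on the nuclear side, had signals of -4.47, -4.57 and -4.46 in YΔG/XK/XI and -4.22, -4.21 and -4.20 in YΔGP/XK/XI. The deleted strain was the tighter group and lay wholly above the control, and its log2 fold change was 0.29 (SE 0.07, adjusted p = 0.0150). This call was lost narrowly when the arrays were quantile normalized (adjusted p = 0.0505), on slide 1 alone (adjusted p = 0.0513) or without replicate 2 of the control (adjusted p = 0.0553). For *SPC72* (YAL047C), the receptor on the cytoplasmic side, the log2 fold change was 0.18 with a 95% interval from just below 0 to 0.37, and it did not pass the test (adjusted p = 0.127). Its arrays did not overlap between the strains either, and the difference between the changes of *SPC110* and *SPC72* was not tested.

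In the layers between these faces, 2 of 4 genes rose, beside 16.5% of all genes. *NUD1* (YOR373W), the outer plaque scaffold on which mitotic exit signalling assembles, gave -3.14, -3.16 and -3.34 in YΔG/XK/XI and -2.60, -2.52 and -2.68 in YΔGP/XK/XI, for a log2 fold change of 0.61 (SE 0.08, adjusted p = 0.00133). *SPC29* (YPL124W), which links the central plaque to *SPC110*'s product, gave -4.65, -4.70 and -4.75 against -4.29, -4.17 and -4.15 (log2 fold change 0.50, SE 0.07, adjusted p = 0.00181). Both genes were higher on all 3 arrays of the deleted strain. The other two genes, *SPC42*, which forms the crystalline core, and *CNM67*, a spacer of the outer plaque, had log2 fold changes of 0.19 and 0.20 with overlapping arrays (adjusted p = 0.209 and 0.174). Single arrays weighed on both values, since *SPC42* was at 0.08 without replicate 2 of the deleted strain and *CNM67* at 0.10 without replicate 1 of it. For *SPC42* the 95% interval ran from -0.05 to 0.43, which overlapped that of *SPC29* (0.33 to 0.66). The difference between the changes of *SPC42* and *SPC29* was not tested.

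The genes for duplicating the spindle pole body and inserting it into the nuclear envelope moved in different directions. Of these 8 genes 3 were higher, 1 lower and 4 not called, where 16.5% of all genes were called higher and 13.1% lower. *KAR1* (YNL188W), a membrane protein of the bridge structure on which the new pole body is built, had signals of -3.20, -3.22 and -3.53 in YΔG/XK/XI and -2.66, -2.69 and -2.89 in YΔGP/XK/XI. Replicate 3 was the lowest array in both strains, and the strains did not overlap (log2 fold change 0.57, SE 0.11, adjusted p = 0.00627). Its partners on that structure were not called. *CDC31*, the yeast centrin, had a log2 fold change of -0.22 (95% interval -0.40 to -0.03, adjusted p = 0.0774), *SFI1*, which binds centrin along the bridge, one of 0.02 (95% interval -0.14 to 0.18), and *MPS3*, a SUN-domain protein, one of 0.11 (95% interval -0.13 to 0.35). *CDC31* was lower on each of the 3 arrays of the deleted strain and passed the test under 4 of the 17 other fits, among them scaling to the array median (adjusted p = 0.0395) and a block for the slide (adjusted p = 0.0426).

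*MPS2* (YGL075C) was the only member that fell, although up to 5 members did so under other scalings. It encodes a membrane protein that acts with the product of *BBP1* when the new pole body is inserted into the envelope. Signals of *MPS2* were -3.51, -3.57 and -3.55 in YΔG/XK/XI and -3.80, -3.97 and -3.87 in YΔGP/XK/XI, for a log2 fold change of -0.34 (SE 0.07, adjusted p = 0.0111). *BBP1* (YPL255W) read -3.88, -3.94 and -4.06 in the control and -3.37, -3.28 and -3.39 in the deleted strain (log2 fold change 0.61, SE 0.08, adjusted p = 8.42e-04). All arrays of YΔGP/XK/XI were thus below the control for *MPS2* and above it for *BBP1*. The call of *MPS2* was lost without replicate 1 of the control (adjusted p = 0.0511) and on slide 1 alone (adjusted p = 0.0533), with log2 fold changes of -0.32 and -0.34. *NDC1*, shared by the pole body and the nuclear pores, had a log2 fold change of 0.16 (95% interval -0.04 to 0.35, adjusted p = 0.205). The protein kinase gene *MPS1* (YDL028C), needed for duplication and for the spindle checkpoint, was -1.22, -1.33 and -1.27 against -1.08, -1.07 and -1.03. Its arrays did not overlap, and its log2 fold change of 0.22 (SE 0.07) passed narrowly (adjusted p = 0.0429). This call held in 6 of the 17 other fits and in 0 of the 6 that left out an array.

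Of the tubulin genes themselves 1 of 3 rose, beside 16.5% of all genes. The log2 fold changes of the tubulin genes were at most 0.22. *TUB3* (YML124C), the minor α-tubulin gene, gave -0.67, -0.71 and -0.64 in YΔG/XK/XI and -0.42, -0.50 and -0.45 in YΔGP/XK/XI, for a log2 fold change of 0.22 (SE 0.07, adjusted p = 0.0421). The strains did not overlap, but the call held in 7 of the 17 other fits and in 0 of the 6 with an array left out. The major α-tubulin gene *TUB1* had a log2 fold change of 0.13 (95% interval -0.09 to 0.35) and the β-tubulin gene *TUB2* one of 0.10 (95% interval -0.11 to 0.31), and in both the strains overlapped. The changes of *TUB1* and *TUB3* were compared directly by taking the difference of their signals within each array. This difference was 1.24 ± 0.14 in the control strain against 1.15 ± 0.08 in the deleted strain (mean ± SD of 3 arrays), and the strains overlapped (exact permutation test, two-sided, p = 0.4). *TUB1* and *TUB3* are close in sequence, and cross-hybridization between their probes was not tested.

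Among the motors, 4 of 7 genes rose, beside 16.5% of all genes, and 0 fell. *KIP1* (YBL063W) and *CIN8* (YEL061C), which encode the bipolar kinesins that push the poles apart, rose together. *KIP1* read -2.82, -2.75 and -2.76 in YΔG/XK/XI and -1.99, -2.07 and -2.01 in YΔGP/XK/XI, for a log2 fold change of 0.75 (SE 0.07, adjusted p = 1.6e-04). *CIN8* read -2.97, -2.94 and -2.85, and -2.34, -2.44 and -2.25 in the deleted strain (log2 fold change 0.57, SE 0.08, adjusted p = 0.00123). For both genes every array of the deleted strain exceeded every control array by more than the replicates of either strain differed. The within-array difference of *CIN8* and *KIP1* shifted by -0.18 between the strains without overlap (exact permutation test, two-sided, p = 0.1). This p-value is the smallest that 3 arrays against 3 can give, and after adjustment over the 4 pairs of genes compared in this way it was 0.2.

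*KAR3* (YPR141C) encodes a minus-end-directed motor that works with either of a pair of noncatalytic partners, the products of *CIK1* and *VIK1*. Signals of *KAR3* were -2.86, -2.93 and -2.81 in the control and -2.33, -2.55 and -2.47 in the deleted strain, for a log2 fold change of 0.42 (SE 0.08, adjusted p = 0.00692). *VIK1* (YPL253C), the partner that brings the motor to the poles, gave -4.04, -3.86 and -4.16 against -3.33, -3.32 and -3.54 (log2 fold change 0.62, SE 0.10, adjusted p = 0.00288). *CIK1* (YMR198W), the partner that also serves in mating, gave -2.34, -2.43 and -2.45 against -2.47, -2.63 and -2.54. The motor gene and *VIK1* were higher in the deleted strain on every array, whereas each array of the deleted strain was lower for *CIK1*, by a log2 fold change of -0.14 that did not pass the test (95% interval -0.31 to 0.03, adjusted p = 0.195). The within-array difference of *CIK1* and *VIK1* was 1.61 ± 0.16 in the control strain against 0.85 ± 0.15 in the deleted strain (mean ± SD of 3 arrays), a shift of -0.76 and the largest of the 4 pairs. The arrays did not overlap, with p = 0.1 in the two-sided exact permutation test, the smallest possible, and 0.2 after adjustment over the 4 pairs. *BBP1* and *VIK1* lie on chromosome XVI with 1 gene between them in the R64 annotation, and they were the only members with fewer than 3 genes between them.

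The remaining kinesin genes were not called. *KIP3*, whose product shortens microtubules at their plus ends, had a log2 fold change of 0.08 (95% interval -0.07 to 0.24). *KIP2*, which encodes a motor of cytoplasmic microtubules, had one of 0.12, and its spread was the largest among the motors (SD 0.258 in the control and 0.322 in the deleted strain). Replicate 3, on the other slide, was its highest array in both strains, and its value was negative without replicate 2 of the control or replicate 3 of the deleted strain (range over all fits -0.05 to 0.26).

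**Figure D3:**
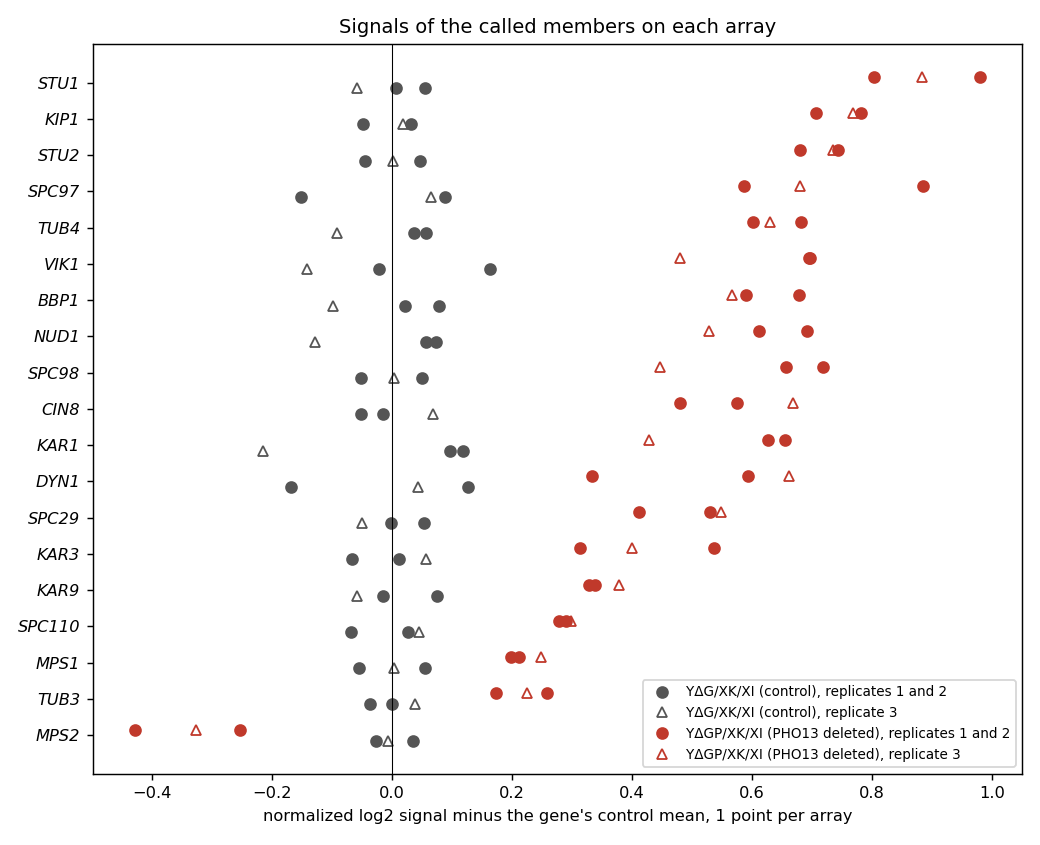
Normalized log2 signal of the 19 called members on each of the 6 arrays, minus the mean of the 3 control arrays of that gene (horizontal axis), ordered by fold change. Grey points are YΔG/XK/XI, red points YΔGP/XK/XI and open triangles replicate 3, which was on another slide, and red and grey do not overlap in any row.

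**Figure D4:**
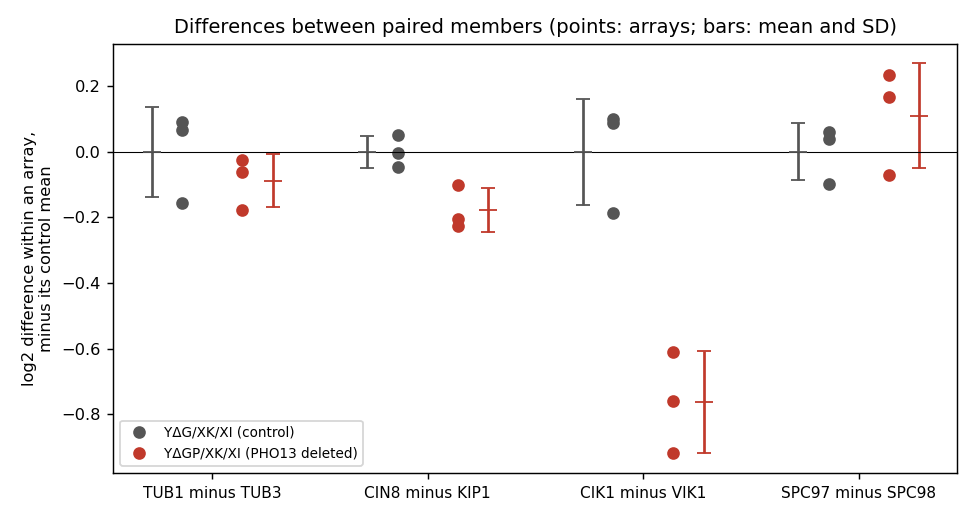
Difference of the normalized log2 signals of 2 members within each array (points), minus its mean over the YΔG/XK/XI arrays, for 4 pairs of genes, with the mean and SD over 3 arrays as bars. The red points of YΔGP/XK/XI lie below the grey points of YΔG/XK/XI for *CIK1* minus *VIK1* and for *CIN8* minus *KIP1*, and the strains overlap in the other pairs.

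Among the microtubule-associated proteins, 3 of 6 genes rose, beside 16.5% of all genes, and 0 fell. This group included the largest increase of all 36 members at this scaling. With quantile normalization *SPC97* exceeded it. *STU1* (YBL034C), the yeast member of the CLASP family that stabilizes spindle microtubules, had signals of -3.68, -3.73 and -3.80 in YΔG/XK/XI and -2.76, -2.93 and -2.85 in YΔGP/XK/XI. This was a log2 fold change of 0.89 (95% interval 0.71 to 1.06, adjusted p = 1.25e-04), or 1.85-fold. *STU2* (YLR045C), which encodes the microtubule polymerase of the XMAP215 family, gave -3.12, -3.21 and -3.16 against -2.42, -2.48 and -2.43 (log2 fold change 0.72, SE 0.07, adjusted p = 1.99e-04). Replicates of *STU2* were close together in both strains, and the strains were far apart. *KAR9* (YPL269W), which links cytoplasmic microtubules to actin cables to orient the spindle, gave -2.64, -2.73 and -2.77 against -2.37, -2.38 and -2.33. It was higher on each array of the deleted strain, and its log2 fold change was 0.35 (SE 0.07, adjusted p = 0.00758).

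The plus-end proteins that recruit other factors to microtubules, and the midzone crosslinker, were not called. *BIM1*, the EB1 homolog, had a log2 fold change of 0.13 (adjusted p = 0.454), with replicate 2 of YΔGP/XK/XI at -2.36, below the control arrays, and replicates 1 and 3 above them. Its log2 fold change was 0.27 without that array (adjusted p = 0.0332), but 0.05 without replicate 1 of the deleted strain (adjusted p = 0.809) and 0.06 without replicate 3 of it (adjusted p = 0.773). *BIK1*, the CLIP-170 homolog, was lower on all 3 arrays of the deleted strain, with a log2 fold change of -0.17 (95% interval -0.33 to -0.01, adjusted p = 0.0940), and it passed the test with quantile normalization (adjusted p = 0.0167) and with scaling to the array median (adjusted p = 0.0344). *ASE1*, which crosslinks microtubules in the spindle midzone, had signals of -2.49, -2.68 and -2.01 in YΔG/XK/XI and -2.82, -2.79 and -2.77 in YΔGP/XK/XI. The control arrays were widely spread, with replicate 3 the highest, and the deleted strain lay below all of them. The log2 fold change of *ASE1* was -0.40 (95% interval -0.75 to -0.05, adjusted p = 0.0810). It was -0.22 on slide 1 and -0.76 on slide 2, the largest difference between the slides among the members, and *ASE1* passed the test once the slide was a block (adjusted p = 0.0331).

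In the dynein pathway 1 of 3 members rose, beside 16.5% of all genes. *DYN1* (YKR054C), the gene of the dynein heavy chain, read -0.25, -0.54 and -0.33 in YΔG/XK/XI and 0.22, -0.04 and 0.29 in YΔGP/XK/XI. Replicate 2 was the lowest array in both strains, the strains did not overlap, and the log2 fold change was 0.53 (SE 0.11, adjusted p = 0.00946). *JNM1*, a dynactin subunit gene, had a log2 fold change of 0.21 without overlap, just short of the threshold (adjusted p = 0.0506). *JNM1* passed the test in 4 of the 17 other fits, when slides were blocked (adjusted p = 0.0363), replicate numbers were blocked (adjusted p = 0.0421), dim probes were left out (adjusted p = 0.0475) or the deposited log2 values were used (adjusted p = 0.0497). *NUM1*, the cortical anchor that captures dynein, had one of -0.07 (95% interval -0.31 to 0.16), with overlapping arrays.

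The 36 other genes of these pathways were listed from general knowledge, again with earlier results of these data known. They comprised 10 that were higher, 4 lower and 22 not called (38.9% called, beside 29.6% of all genes). By direction, 16.5% of all genes were called higher and 13.1% lower. In the list of other dynein and dynactin genes 4 of 10 rose and 0 fell (median log2 fold change 0.18). They were *SHE1* (0.49), a regulator of dynein, the dynactin genes *ARP10* (0.42) and *NIP100* (0.36), and the light chain gene *DYN2* (0.36). The probe of *ARP10* was dim (mean -6.93 in the control strain), and its log2 fold change was 0.56 on slide 1 and 0.14 on slide 2. Of the tubulin folding cofactors and prefoldin subunits 4 of 12 rose and 1 fell. Those that rose were the prefoldin genes *PFD1* (0.76), *GIM4* (0.53) and *YKE2* (0.38) and the cofactor gene *CIN2* (0.66), and the cofactor gene *PAC2* fell by 0.30 on the log2 scale. Prefoldin also serves actin folding, so its genes do not belong to tubulin alone.

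Of 10 other spindle pole and spindle genes 2 rose and 2 fell, where 16.5% of all genes were called higher and 13.1% lower. *HCM1* (YCR065W) encodes a forkhead transcription factor of S phase known for activating spindle genes. It had normalized log2 signals of -3.87, -3.86 and -3.96 in YΔG/XK/XI and -3.52, -3.65 and -3.50 in YΔGP/XK/XI, for a log2 fold change of 0.34 (SE 0.08, adjusted p = 0.0110), and the strains did not overlap. *SLK19*, whose product stabilizes the anaphase spindle, had a log2 fold change of 0.46 (adjusted p = 0.0122). *NBP1*, which acts with *MPS2* and *BBP1* in inserting the pole body, fell by 0.38 on the log2 scale (adjusted p = 0.00556), and *POM34*, a nuclear pore membrane gene, fell by 0.40 (adjusted p = 0.00869). In the meiotic plaque, which replaces the outer plaque during sporulation, 0 of 4 genes rose and *SPO74* fell by 0.35 (adjusted p = 0.0158).

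On slide 1, with replicates 1 and 2, and on slide 2, with replicate 3, the fold changes had the same sign in 35 of the 36 members. All 19 called members were among these. The lack of overlap fixes this in 27 members, the called ones included. On slide 1 alone 13 members were called higher and 0 lower, beside 790 and 520 of all genes, with 2 arrays of each strain. Of the 19 called members, 13 kept their call in all 17 other fits, and *SPC110*, *MPS1*, *MPS2*, *TUB3*, *KAR9* and *DYN1* lost it in at least 1. *KAR9* and *DYN1* lost it on slide 1 alone (adjusted p = 0.0511 and 0.0578). The balance of directions depended on the scaling. With quantile normalization 15 members were higher and 5 lower, beside 910 and 991 of all genes, and with scaling to the array median 16 were higher and 3 lower, beside 838 and 1137 of all genes, whereas the 75th percentile gave 1033 and 819. The median log2 fold change of the members stayed between 0.15 and 0.25 over all fits.

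**Figure D5:**
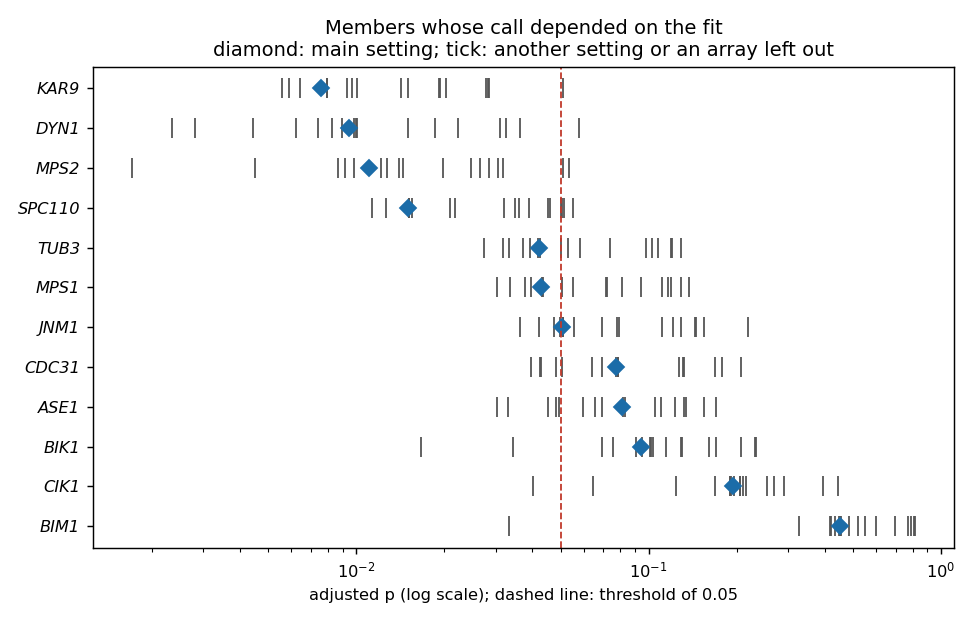
Adjusted p (horizontal log axis) of the 12 members whose call differed between fits, with the main setting as a diamond, the other settings and the fits without an array as ticks, and the threshold of 0.05 as a dashed line. The 6 genes at the top were called in the main setting and the 6 below were not, and *MPS1* and *TUB3* lie closest to the line among the called genes.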

How the data were processed

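Total RNA of 3 replicates per strain was labelled with Cy3 and hybridized to Agilent yeast arrays, 1 array per replicate. The authors deposited Feature Extraction output (version 10.1.1.1 per the submitters' processing notes) with background-subtracted spot intensity and raw median intensities, not scaled between arrays. A further table that the authors deposited holds log2 values and follows the 75th percentile scaling with each probe centred on its median (r of at least 0.9999 with the intensities treated so). The methods state normalization per chip.

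Without the outlier spots, log2 intensities were averaged over the 7 spots of each probe and set against the 75th percentile of their array. A probe needed that mark on at least 4 spots to count as well above background. For the comparison of strains limma 3.58.1 was run in R 4.3.3 over all 6256 genes, with Benjamini-Hochberg adjustment. Systematic names were matched to R64 symbols (5756 matched, all 36 members included). The number of arrays limits the precision. The labels do not say that replicates came from separate cultures. The study describes its fermentations as independent experiments and the array experiment as done in triplicate, without saying which fermentation each array sampled, so p-values measure the spread between these samples, which may be in part technical. Differences between gene pairs were tested by exact permutation over arrays.

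The members, groups and lists were chosen with earlier results of these data known, and *NUD1*, *KAR1*, *CIN8*, *KIP1*, *KAR3* and *STU1* are also in the study's own lists of changed cell cycle genes. Called members are given with every array. Alternatives were normexp (offset 50, on median intensities), quantile and median scaling, a filter on dim probes, the median over spots, outliers kept, an intensity trend, the replicate number or slide as a block, slide 1 and slide 2 alone, the deposited log2 values and the omission of each array. Promoter motifs were not analysed here. Simulated data with the spread of the arrays returned 93 of 100 genes changed by 1 on the log2 scale and 65 of 100 changed by 0.5.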

Additional observations from a re-analysis of the deposited data

How the results depend on the processing

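The number of members called higher, 18, stayed within 1.5 times under every alternative (13 to 19), and no called member changed direction. The number called lower, 1, was 5 with quantile normalization, 3 with scaling to the array median, 2 with an intensity trend, 3 with the slide as a block, 3 with the replicate number as a block and 0 on slide 1 alone, and 0 to 2 with an array left out (0 without replicate 1 of YΔG/XK/XI, 2 without replicate 2 of it). The genes that joined were *CDC31*, *CIK1*, *ASE1* and *BIK1*, and the cause was not tested. Over all genes 1852 were called, 1178 to 1661 with an array left out, the fewest without replicate 1 of YΔG/XK/XI. Of the other pathway genes 4 were lower, but 2 with normexp and 2 on slide 1 alone. The difference of *SPC97* minus *SPC98* between the strains, 0.11, was -0.0724 with normexp, and the cause was not tested. Same-numbered replicates deviated from their strain means with correlations of 0.07, 0.30 and 0.41, and other-numbered ones with correlations from -0.48 to 0.13. Replicates 2 and 3 thus stood above every other-numbered pair, and replicate 1 did not. The main fit did not pair the samples, so an effect shared by replicate number or slide was not taken out in it. With the replicate block 2362 of all genes were called, and of the members 19 were higher and 3 lower. On slide 2 alone, without a test, the values of *TUB4*, *SPC98*, *SPC29*, *NDC1*, *ASE1*, *BIK1* and *KAR9* moved by more than the SD. With 3 arrays per strain the median standard error of the members was 0.08 on the log2 scale, which limits what can be called among the smaller changes.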
